A study of Mus musculus with 120 samples.

Results

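Resting soleus muscle of mice that lack ANT1 was compared with resting soleus of 3 mouse strains that each carry a single missense mutation in mitochondrial DNA (mtDNA). The comparison uses 24 of the 120 samples of the series, all picked by their labels and none by a measured value: 6 ANT1 libraries, and 6 each from the ND5, ND6 and CO1 strains, which make the 18 reference libraries. The ANT1 mice are homozygous for a null allele of Slc25a4 (Slc25a4-/-) and carry no mtDNA mutation in their label. The ND5 mice carry m.12352C>T (S204F), the ND6 mice m.13997G>A (P25L), both in subunits of complex I, and the CO1 mice m.6589T>C (V421A) in a subunit of complex IV. All strains share the C57BL/6EiJ (Nnt+/+) background. Mice entered the study at 16 weeks of age, were tested for running capacity, and were then only handled for 8 weeks (the resting mice), while others ran on alternate days for 45 min at 50% of their maximal capacity and were killed 6 days after the last session. The reference is therefore itself mutant, and the control strain is not analysed here: a difference below says how ANT1 soleus stands to the mean of the 3 mtDNA strains, each weighted equally, and not how either stands to wild type. The labels name no tissue-specific driver, and they give each mouse its own code.

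ANT1, encoded by Slc25a4, is the main adenine nucleotide translocator of striated muscle. It sits in the inner mitochondrial membrane and exchanges matrix ATP for cytosolic ADP, so it lies downstream of the respiratory chain, whose subunits the mtDNA mutations hit. Soleus is a postural calf muscle of slow and oxidative fast fibres, rich in mitochondria, and its contractile, calcium-handling and metabolic genes are known to follow nerve activity through calcium, AMP and hormone signals.

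Slc25a4 (chromosome 8, 46206797 to 46211284 on mm10, minus strand) was checked first. Its lowest, median and highest levels were 11, 13.9 and 22.1 CPM in the 6 ANT1 libraries and 2170, 3139 and 3603 CPM in the 18 others. CPM are counts scaled to library size and to the TMM factor described below, so they are not plain shares of a library's counts. No ANT1 library came near any other, and the log2 fold change was -7.73 ± 0.19 (log2 value ± SE, here and below), with adjusted p = 1.05e-32 by edgeR's quasi-likelihood test with Benjamini-Hochberg adjustment over all 13935 genes tested, as for every adjusted p below. Slc25a5 on chromosome X (36795651 to 36798807) encodes ANT2, the translocator of most other tissues. It measured 104, 119.9 and 186 CPM in ANT1 soleus against 42.4, 69.8 and 82.6 CPM, so that every ANT1 value lay above every other, and it rose by 0.995 ± 0.11 (adjusted p = 1.25e-10). On the deposited FPKM scale, which is per length and lets genes be compared, Slc25a5 stood at a mean level of 98.4 ± 25.7 (SD, n = 6) in ANT1 soleus, where Slc25a4 stood at 2176 ± 254, 2395 ± 85.1 and 2360 ± 156 in ND5, ND6 and CO1 soleus. ANT2 message thus stayed far under the level that ANT1 message had in the other strains.

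Libraries held 13.55 to 17.56 M counts (M, mega) in ANT1 and 10.21 to 20.75 M in the 18 others. Transcripts encoded by mtDNA took 35.81 to 47.59% of the counts in ANT1 and 12.87 to 23.02% in the others, without overlap. This matters for every value below. TMM, the scaling used, sets the bulk of the tested genes level between libraries, and the median log2 fold change of all genes was -0.04. Scaled to plain library totals instead, an alternative added after seeing the data, that median was -0.69, and scaled to the totals of nuclear genes alone it was -0.26. Higher and lower below therefore mean relative to the bulk of genes, and a gene up to about 0.65 above that bulk was level with or under the reference as a share of all counts.

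With that scale, 6653 of 13935 genes (47.7%) were called at an adjusted p under 0.05, of which 3120 (22.4%) were higher and 3533 (25.4%) lower in ANT1. Of the called genes 46.9% were higher, and that share was 17.2% with nuclear totals and 3.19% with library totals. The 6 ANT1 values lay all above the 18 others for 922 genes (6.62%) and all below for 466 (3.34%). With fibroblast and tendon markers as a covariate 4069 genes were called, 2035 higher and 2034 lower. The shares over all genes are the background against which the gene lists below were read. The lists were chosen with earlier results of these data known, so their shares only describe them. The 41 lists cover 1297 genes of signalling, structure, metabolism, turnover and transcription, of which 1243 were tested.

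The makeup of the samples moved with the strains. Of 10 fast glycolytic fibre markers 5 were lower and 2 higher in ANT1, and their mean level ran from 7.55 to 9.01 log2 CPM against 9.69 to 11.01 in the others, although their summed level overlapped (20900 to 32800 against 21800 to 33400 CPM). Slow fibre markers averaged 9.46 to 9.88 against 9.74 to 10.51 log2 CPM (6 of 10 lower, 1 higher), and Myh2, the myosin of oxidative fast fibres, overlapped (13860, 15110 and 16270 against 10790, 13320 and 16020 CPM; log2 fold change 0.20 ± 0.09, adjusted p = 0.0615, not called). It was called at 0.21 with RLE factors, DESeq2 or mtDNA-encoded genes removed, and at 0.23, 0.21 and 0.22 without ANT1 mouse A82, CO1 mouse E100 or ND5 mouse B3, but called lower on library totals (-0.45). Fibroblast markers (9 of 11 lower, summed level 331 to 785 against 456 to 3440 CPM), tendon markers (7 of 7 lower, 34.8 to 75.4 against 59.3 to 545 CPM) and macrophage markers (8 of 10 lower, 33.7 to 97.7 against 32.8 to 353 CPM) were lower in ANT1. These counts differed by strain: 9, 5 and 10 of them were lower against ND5, 8, 6 and 6 against CO1, and 2, 3 and 0 against ND6, and 4 macrophage markers were lower than the mean of ND6 and CO1. Endothelial markers were higher for 7 of 10 (312 to 528 against 237 to 396 CPM), a count of 0 higher and 7 lower with library totals and of 0 in either direction with nuclear totals. No defining marker of these types was at 0 in all 24 libraries. In bulk tissue, fewer cells of a type and less RNA per cell cannot be told apart. Embryonic myosin Myh3, a mark of immature fibres, was above 8 log2 CPM in 5 of the 18 reference libraries, ND5 mice B70, B19 and B85 (9.78 to 10.91) and CO1 mice E64 and E98 (8.74 and 9.07), and values without these 5 are given where they matter. What part these differences in makeup have in the results was not tested, beyond the fits with a marker level as a covariate that are quoted below.

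**Figure D1:**
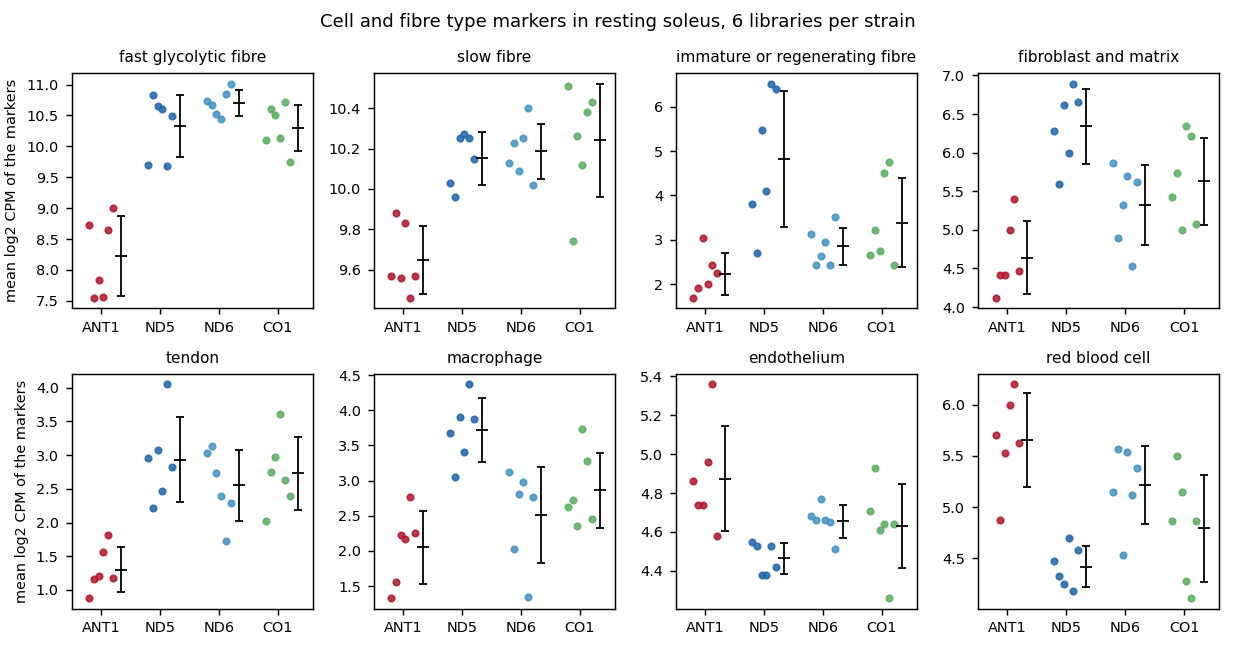
Mean level (log2 CPM) of each marker list (one panel per list) in each of the 24 resting libraries, by strain. The fast glycolytic fibre markers of the 6 ANT1 libraries sit between 7.55 and 9.01, under all 18 others, while immature fibre, fibroblast and tendon markers reach their highest values (6.52, 6.89 and 4.05) in an ND5 library.

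Calcium handling held large differences in both directions. Pln encodes phospholamban, which restrains the sarcoplasmic calcium pump of slow fibres. Its levels were 64.5, 87.5 and 119 CPM in ANT1 and 5.24, 12.6 and 28.7 CPM in the others, and it rose by 2.67 ± 0.21 (adjusted p = 1.12e-14). Sln encodes sarcolipin, a second inhibitor of the same pump family, and it went the opposite way, with 3.19, 6.47 and 9 CPM against 43.2, 106 and 404 CPM and a fall by 4.36 ± 0.44 (adjusted p = 2.53e-11). The ANT1 libraries were thus all high for one pump inhibitor and all low for the other. Of the pumps, Atp2a1, of fast fibres, was not called (0.09 ± 0.12, adjusted p = 0.57), and Atp2a2, of slow fibres, fell by 0.33 ± 0.12 (adjusted p = 0.0243) with overlapping values. The Atp2a2 call was lost without ANT1 mouse A75 (-0.3, adjusted p = 0.0623) or A82 (-0.19, adjusted p = 0.163) and with fast glycolytic fibre markers as a covariate (-0.36, adjusted p = 0.174). With that covariate Atp2a1 was called higher (0.63, adjusted p = 0.00331), but Atp2a1 is itself a member of that marker list. The covariate thus holds part of the gene's own level, and this call is not a separate result. On library totals Atp2a1 was called lower (-0.55, adjusted p = 2.35e-05).

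S100a1 encodes a calcium sensor that binds the release channel and the pump. It measured 403, 458 and 536 CPM in ANT1 against 105, 132 and 168 CPM, a rise of 1.78 ± 0.08 (adjusted p = 7.25e-22), with no overlap. Casq1, the calcium buffer inside the fast-fibre store, measured 331, 366 and 378 CPM against 562, 648 and 902 CPM and fell by 0.90 ± 0.07 (adjusted p = 1.21e-13). Cacnb1 encodes the beta subunit of the voltage sensor in the T-tubule, and at 26.7, 30.8 and 34.9 CPM against 63.6, 74.4 and 105 CPM it fell by 1.34 ± 0.10 (adjusted p = 6.48e-15). The pore of that sensor, Cacna1s (-0.05 ± 0.08, adjusted p = 0.665), and the release channel, Ryr1 (0.03 ± 0.12, adjusted p = 0.882), were not called, but with fibroblast and tendon markers as a covariate Cacna1s was called lower (-0.29, adjusted p = 0.0156), as were both on library totals (-0.68 and -0.61) and Cacna1s on nuclear totals (-0.27). Over the list of triad and membrane repair genes, 23 of 41 tested were lower and 3 higher (median -0.29). Of the 12 tested genes of voltage sensor and release channel, 7 were lower and none higher.

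**Figure D2:**
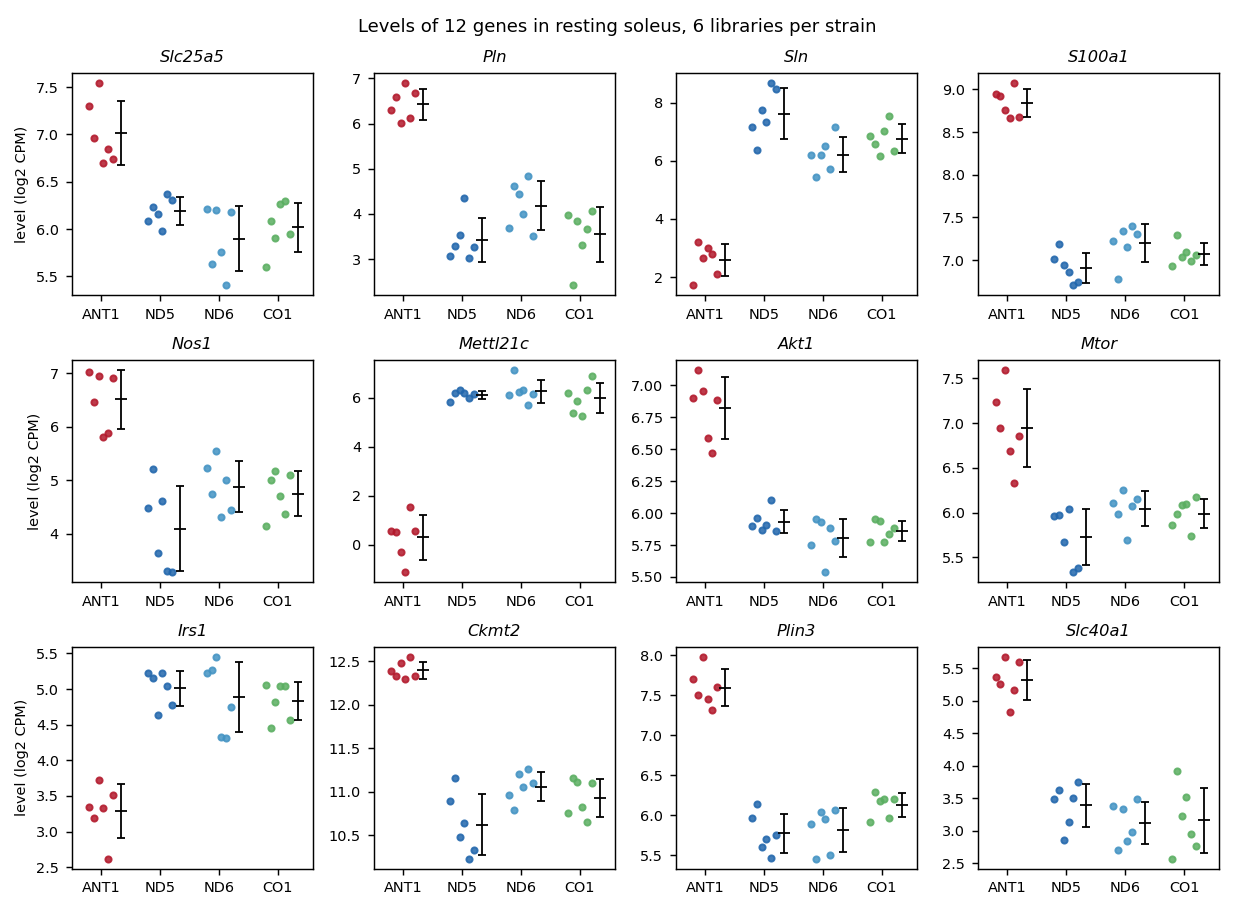
Levels (log2 CPM, linear axis of log values) of 12 genes in each of the 24 resting libraries, by strain, with horizontal bars at the group means. Pln, S100a1, Nos1, Akt1, Mtor, Ckmt2, Plin3, Slc40a1 and Slc25a5 are higher in all 6 ANT1 libraries than in the 18 others, and Sln, Mettl21c and Irs1 are lower in all 6.

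Ion channels and pumps split both ways, 13 of 48 higher and 15 lower (median -0.12), and the direction of the higher members depended on scale, with 5 higher and 26 lower on nuclear totals and 5 higher with fibroblast and tendon markers as a covariate. Among the lower ones were 3 channel subunits that shape repolarization or sodium current: Kcnc4 (0.371, 1.36 and 1.97 against 4.73, 7.52 and 11.5 CPM, -2.57 ± 0.25), Kcnq5 (-1.46 ± 0.14) and Scn3b (-3.11 ± 0.30), each with 6 ANT1 values below all others. Kcnc4 was at -1.45 with fast glycolytic fibre markers as a covariate. Carbonic anhydrases, which hydrate carbon dioxide, diverged. Car3, the cytosolic form of slow fibres, measured 235, 351 and 712 CPM against 1576, 2230 and 3526 CPM and fell by 2.59 ± 0.21 (adjusted p = 8.3e-14), whereas the membrane form Car14 measured 37, 42.6 and 49.9 against 9.59, 16.4 and 24.1 CPM and rose by 1.34 ± 0.14 (adjusted p = 1.47e-10), or by 0.88 with fibroblast and tendon markers as a covariate.

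Each structural list held more lower than higher genes, by a narrow margin in the thin filament and among ion channels. The Z-disc, which anchors thin filaments, had 17 of 27 tested genes lower and none higher (median -0.47), with 5 of them below all 18 others. Synpo2l, an actin-binding Z-disc protein, measured 88.6, 128 and 142 against 169, 234 and 333 CPM and fell by 0.95 ± 0.12, and its relative Synpo2 fell by 0.62 ± 0.08. Xirp2, also an actin-binding protein, fell by 0.76 ± 0.09 (1214, 1605 and 1791 against 2121, 2559 and 3131 CPM). Fhl1, a sarcomere scaffold counted with the thick filament below and whose human mutations cause myopathy, fell by 0.75 ± 0.10 (2234, 2669 and 2941 against 3391, 4401 and 6136 CPM). All these adjusted p-values were 8.2e-08 or smaller, and none of these genes overlapped between the groups.

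In the thick filament and M-band 11 of 21 were lower and 4 higher, and the M-band linker Obsl1 fell by 1.06 ± 0.12 (18.8, 20.2 and 27.7 against 32.2, 41.6 and 68.8 CPM). In the thin filament 8 of 21 were lower (5 without the high-Myh3 libraries) and 7 higher. Tnnc2, the fast troponin C, was higher by 0.64 ± 0.09 (4301, 4946 and 7187 against 2506, 3323 and 4212 CPM) and at -0.03 on library totals. Klhl41, a filament-stabilizing Kelch protein of the same list, fell by 0.77 ± 0.09. Among genes outside these lists, Tnni1, the slow troponin I and a slow fibre marker, fell by 1.51 ± 0.13 (343, 396 and 533 against 735, 1265 and 1538 CPM), and Ablim1, an actin-binding LIM protein, fell by 2.85 ± 0.17 with all ANT1 values (52.9, 57.8 and 78.4 CPM) under 232 CPM, the lowest of the others.

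The dystrophin complex and costamere link the filaments to the matrix, and 23 of 42 genes there were lower and 7 higher (median -0.22). Nos1, the neuronal nitric oxide synthase that dystrophin holds at the membrane, was among the 7 higher, with 55.9, 105 and 129.7 CPM in ANT1 and 9.64, 25.1 and 46.7 CPM in the others, a rise of 1.93 ± 0.23 (adjusted p = 1.5e-09), or of 1.19 with fibroblast and tendon markers as a covariate. The laminin chain Lama2 measured 29.9, 32.8 and 36.3 against 48.2, 54.6 and 63.8 CPM and fell by 0.72 ± 0.08 (adjusted p = 2.24e-10). Its receptors fell too: dystroglycan, Dag1, by 0.69 ± 0.11 with overlapping values, and the integrin Itga7 by 0.80 ± 0.14 without overlap. With the same covariate Lama2 and Itga7 stood at -0.47 and -0.42.

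At the neuromuscular junction 7 of 17 genes were lower and 2 higher. Chrnb1, a subunit of the acetylcholine receptor, measured 7.79, 8.76 and 11.4 against 13, 19.3 and 51 CPM and fell by 1.28 ± 0.22 (adjusted p = 4.46e-06). Ncam1, the adhesion molecule of the junction and of denervated or immature fibres, measured 6.13, 7.28 and 8.78 against 13.5, 18 and 41.6 CPM and fell by 1.55 ± 0.21 (adjusted p = 3.47e-08). The intermediate filament Nes, found at the junction, fell by 1.66 ± 0.27. Each of these 3 was highest in mtDNA libraries with high Myh3, and each kept its call without those 5 libraries, at -0.91, -1.25 and -1.27. They stood at -0.64, -0.92 and -0.73 with fibroblast and tendon markers as a covariate. Of 22 tubulin and motor genes 14 were lower and 2 higher (median -0.59), and the microtubule-associated Map1a (12.3, 14 and 16.4 against 27.1, 44.5 and 69.2 CPM), Map1b and Mapt fell by 1.71 ± 0.17, 1.79 ± 0.23 and 0.71 ± 0.08, with Map1b at -1.01 under that covariate.

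Of the 10 signalling lists, 8 had a larger share of lower genes than the 25.4% of all genes and a smaller share of higher genes than 22.4%, the exceptions being Notch (4 of 18 lower, 1 higher) and AMP-activated kinase. In insulin, IGF and mTOR signalling 12 of 41 were lower and 7 higher (median -0.11), shares near those of all genes. No tested ligand, binding protein, receptor or adaptor of the pathway was called higher, and 4 of 7 and 4 of 8 were lower. Irs1, the adaptor that insulin and IGF receptors phosphorylate, measured 6.03, 9.99 and 13 CPM against 19.9, 32.8 and 43.7 CPM and fell by 1.62 ± 0.19 (adjusted p = 2.13e-09). The catalytic PI3-kinase subunit Pik3ca fell by 0.84 ± 0.08 (39.8, 40.9 and 43.7 against 56.3, 74.3 and 86.5 CPM). Of the kinases below them, Akt1 and Mtor stood higher. By role, 2 of 12 kinases and phosphatases were higher and 3 lower, and 5 of 14 mTOR complex genes were higher and 1 lower. Akt1 measured 88.7, 119 and 139 CPM against 46.5, 58.8 and 68.4 CPM, a rise of 0.97 ± 0.08 (adjusted p = 2.82e-14). Mtor measured 80.5, 119.8 and 193 CPM against 40.3, 63.4 and 76.1 CPM, a rise of 1.07 ± 0.12 (adjusted p = 8.88e-10). No ANT1 value of Irs1, Pik3ca, Akt1 or Mtor overlapped the others, so this adaptor and lipid kinase were low in the same libraries in which Akt1 and Mtor were high.

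AMP-activated kinase senses falling ATP. Of 22 genes of this kinase, its regulators and its targets 7 were lower and 6 higher (median -0.08), namely 4 lower and 1 higher of 7 subunits, 2 and 3 of 10 upstream kinases and regulators, and 1 and 2 of 5 targets. Prkag3, the gamma subunit of fast glycolytic fibres, measured 2.53, 3.23 and 4.47 against 6.75, 10.1 and 14.9 CPM and fell by 1.60 ± 0.21 (adjusted p = 2.08e-08), or stood at -0.88 with fast glycolytic fibre markers as a covariate. Sesn3, a stress-induced regulator of this kinase and of mTOR, fell by 0.88 ± 0.11 (16, 24.6 and 29.6 against 34.3, 43.8 and 51.1 CPM).

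Myostatin and activins restrain muscle mass, BMPs support it and TGF-beta drives matrix. The list of these pathways was lower for 27 of 46 genes and higher for 2 (median -0.41), among them 8 of 11 receptors. The BMP receptors Acvr1 (6.24, 7.67 and 9.46 against 11.8, 16.9 and 21.6 CPM) and Bmpr1a fell by 1.11 ± 0.13 and 0.52 ± 0.06, and Tgfbr1 fell by 0.70 ± 0.08. Fst encodes follistatin, which traps activins and myostatin, and it measured 1.65, 2.32 and 3.22 against 4.31, 8.74 and 17.9 CPM and fell by 1.93 ± 0.28 (adjusted p = 1.66e-07). With fibroblast and tendon markers as a covariate 14 genes of this list were lower, in place of 27, and Fst stood at -1.22.

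In Wnt signalling 16 of 39 were lower and 8 higher (median -0.26), including 8 of 14 receptors lower and none higher. Frzb, a secreted Wnt trap, measured 10.2, 16.8 and 20.4 against 1.40, 4.16 and 6.31 CPM and rose by 1.98 ± 0.17 (adjusted p = 1.04e-13), without overlap. The ligand Wnt16 rose by 2.33 ± 0.25, at low levels that overlapped (1.60, 3.91 and 5.94 against 0.268, 0.654 and 2.54 CPM). The receptor kinase Ryk fell by 0.45 ± 0.06. In the Hippo pathway 10 of 21 were lower and 1 higher, and Cyr61, a matrix protein made on its activation, fell by 1.74 ± 0.27 (15.3, 18.4 and 20.3 against 27.6, 55.2 and 129.8 CPM).

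Calcineurin and the calmodulin kinases read nerve activity from calcium. Of 27 genes 16 were lower and 3 higher (median -0.29), with 10 of 13 calmodulin and kinase genes lower and none higher. Rcan1, whose transcription calcineurin activates and whose product inhibits it, measured 68.7, 87.2 and 204 against 154, 352 and 559.5 CPM and fell by 1.59 ± 0.30 (adjusted p = 2.75e-05), with the highest ANT1 value inside the range of the others. Nfatc2, a target factor of calcineurin, fell by 1.39 ± 0.22 (2.87, 8.13 and 8.65 against 8.73, 17 and 28.8 CPM), while Nfatc1, the slow-fibre member, was not called (-0.08 ± 0.09, adjusted p = 0.529), but was called lower on library and nuclear totals (-0.72 and -0.3). Camk2b fell by 0.60 ± 0.07.

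Among MAP kinase genes 18 of 39 were lower and 5 higher, and no phosphatase or inhibitor was higher while 11 of 17 were lower. Dusp1, an immediate-early phosphatase, fell by 0.76 ± 0.12. Erbb4, a neuregulin receptor of this list, was low in all libraries and rose by 2.12 ± 0.25 (1.04, 2.12 and 2.63 against 0.135, 0.410 and 0.916 CPM). In adrenergic and cAMP signalling 21 of 42 were lower and 5 higher (median -0.24), including the anchors Akap6 and Akap13 (fell by 0.82 ± 0.10 and 0.67 ± 0.07) and the transcription factor Crem (fell by 0.95 ± 0.12).

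Factors that muscle secretes were lower for 9 of 20 and higher for 4. Vegfb, a growth factor that acts on the endothelium, measured 143, 161 and 174 against 55.4, 80.3 and 105 CPM and rose by 1.001 ± 0.08 (adjusted p = 6e-14). Fndc5, the precursor of irisin, measured 270, 307 and 334 against 131, 178 and 241 CPM and was higher by 0.76 ± 0.08 (adjusted p = 6.71e-11). Neither overlapped. On library totals Vegfb remained higher (0.36), and Fndc5 stood at 0.11. Of 12 receptors for such factors 7 were lower, among them Fgfr1 (fell by 0.92 ± 0.09, 24.2, 35.2 and 44 against 53.2, 61.5 and 81 CPM).

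Fewer genes of several of these lists were lower when a marker level entered the fit. The fast glycolytic marker level does not overlap between ANT1 and the others, so that this covariate and the strain cannot be fully told apart. Fibroblast (4.12 to 5.4 against 4.53 to 6.89 log2 CPM) and tendon marker levels (0.88 to 1.81 against 1.73 to 4.05) overlap only in part. The same limit therefore bears on the fibroblast and tendon covariate. With fast glycolytic fibre markers as a covariate 7 Wnt, 6 Hippo, 10 calcineurin and calmodulin kinase, 11 MAP kinase, 11 adrenergic and cAMP, 6 thick filament and 15 dystrophin and costamere genes were lower. With fibroblast and tendon markers as a covariate 7 insulin, 7 Wnt, 6 Hippo and 7 tubulin and motor genes were lower, and 8 of the secreted factors and their receptors, in place of 16. The cause was not tested.

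**Figure D3:**
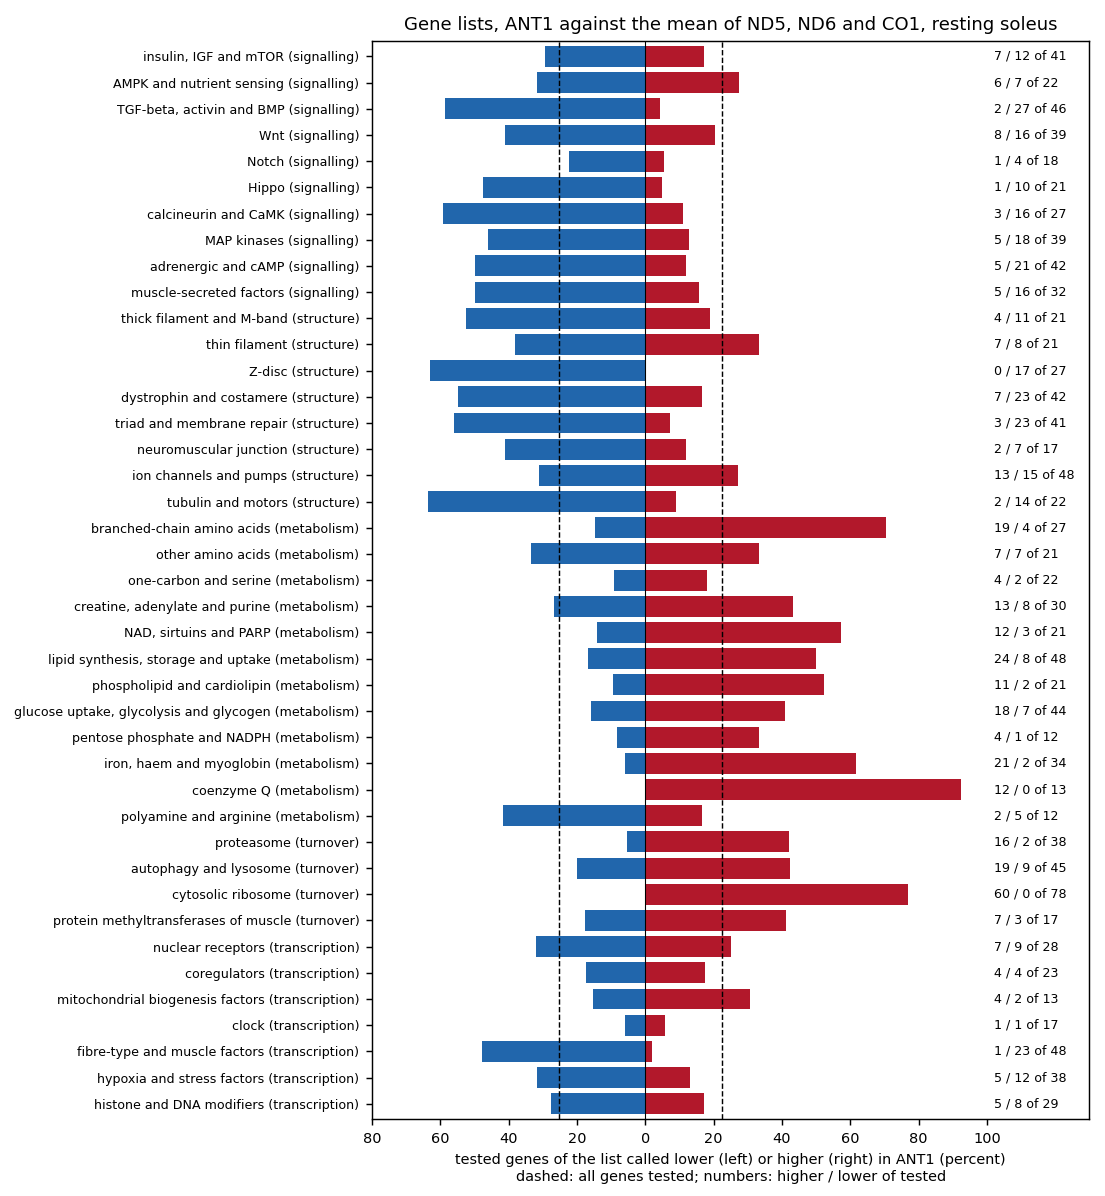
For each of the 41 lists, the percent of its tested genes called lower (left) and higher (right) in ANT1, with dashed lines at 25.4% and 22.4%, the shares over all genes tested, and the counts beside the bars. Signalling and structure lists extend further to the left than to the right and several metabolic lists further to the right; on library totals every metabolic list has more genes lower than higher.

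Several metabolic lists had a larger share of higher genes than the 22.4% of all genes, and for these the direction turned with the scale. The phosphocreatine shuttle carries energy from mitochondria to filaments. Ckmt2, the mitochondrial creatine kinase that couples to the translocator, measured 5040, 5257 and 6007 CPM against 1200, 1945 and 2444 CPM and rose by 1.51 ± 0.10 (adjusted p = 3.83e-17), and by 0.86 on library totals. The cytosolic partner Ckm measured 9440, 10080 and 11460 against 4873, 6638 and 7391 CPM and was higher by 0.67 ± 0.07, and by 0.01 on library totals. In purine metabolism Ampd3, an AMP deaminase, fell by 0.92 ± 0.16. The whole list of creatine, adenylate and purine genes had 13 of 30 higher and 8 lower, 6 and 14 on nuclear totals and 1 and 24 on library totals.

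Coenzyme Q carries electrons to complex III. Of 13 genes for its synthesis 12 were higher and none lower (median 0.65), 10 and 0 on nuclear totals, and 2 and 3 on library totals. Coq6 measured 31.6, 35.1 and 37.2 against 14, 19.4 and 23.9 CPM and rose by 0.86 ± 0.06 (adjusted p = 2.19e-16), and Pdss1, which builds the side chain, rose by 1.05 ± 0.10 (18.3, 24.4 and 32.1 against 8.06, 12 and 14.5 CPM). All 6 ANT1 values lay above the 18 others for 8 of the 13 genes, against 6.62% of all genes.

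Iron, haem and myoglobin genes were higher for 21 of 34 and lower for 2 (median 0.37), 18 and 9 on nuclear totals and 5 and 19 on library totals. Slc40a1 encodes ferroportin, the only known iron exporter of animal cells, and it measured 28.3, 39.5 and 50.8 CPM against 5.82, 9.58 and 15 CPM, a rise of 2.09 ± 0.15 (adjusted p = 5.06e-16). The iron-sulfur scaffold Iscu measured 133, 145 and 165 against 70.7, 83.7 and 94.8 CPM and rose by 0.83 ± 0.06, and the ferredoxin Fdx1 rose by 0.99 ± 0.08 (43.4, 48.6 and 53.7 against 18.1, 24.9 and 29.3 CPM). Exporter and cluster assembly genes were thus high in the same 6 libraries. Red blood cell markers moved with them (5 of 5 tested higher, summed level 262 to 627 against 162 to 433 CPM, with overlap), and their part in these values was not tested.

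Breakdown of branched-chain amino acids had 19 of 27 genes higher and 4 lower (median 0.42), 14 and 5 on nuclear totals and 2 and 17 on library totals. Hsd17b10, of the isoleucine branch, measured 71.4, 79.7 and 86.5 against 35.4, 46.8 and 53.8 CPM and rose by 0.78 ± 0.06 (adjusted p = 5.84e-15). Oxct1, which lets muscle use ketone bodies, measured 1131, 1418 and 1634 against 537, 739 and 927 CPM and rose by 0.87 ± 0.09 (adjusted p = 1.36e-11), or by 0.57 with fibroblast and tendon markers as a covariate. Among the other amino acids, 7 of 21 were higher and 7 lower. The transaminase Gpt, which makes alanine from pyruvate, measured 84.3, 95.9 and 99.7 against 23.3, 32.4 and 55.6 CPM and rose by 1.47 ± 0.10 (adjusted p = 4.87e-16). Got1, of the malate-aspartate shuttle, measured 801, 972 and 1284 against 368, 515 and 606 CPM and rose by 1.01 ± 0.09, and Aldh18a1, of proline synthesis, rose by 1.14 ± 0.15, or by 0.6 with fast glycolytic fibre markers as a covariate. All 3 separated from the 18 others.

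Lipid genes were higher for 24 of 48 and lower for 8 (median 0.33), 17 and 13 on nuclear totals and 6 and 27 on library totals, and the roles differed: storage and release had 9 of 15 higher and none lower, uptake 8 of 14 higher and 4 lower, synthesis 7 of 19 higher and 4 lower. Plin3 coats lipid droplets. It measured 159, 187 and 253 CPM in ANT1 against 43.8, 62 and 78.3 CPM, a rise of 1.69 ± 0.10 (adjusted p = 9.13e-19). Fabp3, the fatty acid binding protein of heart and slow muscle, measured 2625, 3302 and 3562 against 824, 1464 and 2268 CPM and rose by 1.12 ± 0.13 (adjusted p = 5.34e-10). Gk, which makes the glycerol phosphate for new triglyceride, measured 15.1, 21.8 and 29.6 against 3.57, 5.94 and 7.32 CPM and rose by 1.89 ± 0.15 (adjusted p = 2.83e-14). The acyltransferase Agpat2 and the droplet protein Cidea rose by 1.23 ± 0.10 and 1.08 ± 0.11. Fasn, the fatty acid synthase, went the other way and fell by 1.12 ± 0.19 (2.67, 3.76 and 5.92 against 5.97, 8.10 and 13.3 CPM), and stood at -0.56 with fibroblast and tendon markers as a covariate. Droplet coat, binding protein and glycerol kinase were thus high without overlap in muscle whose fatty acid synthase was low without overlap. Of 6 adipocyte markers 0 were called at rest, with a mean level of 0.21 to 1.92 against -0.58 to 1.6 log2 CPM. In exercised mice 4 of them were called higher. The part of fat cells in these lipid values was not tested.

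Phospholipid and cardiolipin genes were higher for 11 of 21 and lower for 2 (median 0.21), 5 and 6 on nuclear totals and 2 and 18 on library totals. Cds1 makes CDP-diacylglycerol, the branch point to cardiolipin and phosphatidylinositol, and it measured 13.7, 16.2 and 18.7 against 1.42, 2.42 and 4.80 CPM, a rise of 2.63 ± 0.17 (adjusted p = 2.44e-17). Chpt1, of phosphatidylcholine synthesis, measured 402, 466 and 560.4 against 126, 219 and 281 CPM and rose by 1.19 ± 0.09 (adjusted p = 8.64e-15).

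Glucose genes were higher for 18 of 44 and lower for 7 (median 0.18), 10 and 13 on nuclear totals and 1 and 32 on library totals. Ldhb, the heart-type lactate dehydrogenase, measured 1888, 2007 and 2196 CPM against 549, 934 and 1024 CPM and rose by 1.24 ± 0.08 (adjusted p = 9.05e-18), and by 0.6 on library totals. Of 21 tested genes for NAD, sirtuins and PARP enzymes 12 were higher and 3 lower (median 0.30), 8 and 6 on nuclear totals and 2 and 13 on library totals. The mitochondrial deacylase Sirt5 measured 23.2, 24.3 and 27.5 against 10.4, 11.6 and 14.9 CPM and rose by 1.03 ± 0.07 (adjusted p = 5.06e-16), the deacetylase Sirt3 measured 27.2, 31 and 36.6 against 13.8, 18.2 and 23.9 CPM and was higher by 0.75 ± 0.09 but not on library totals (0.11, adjusted p = 0.188), and nuclear Sirt1 fell by 0.39 ± 0.09 with overlap. Nmrk2, the nicotinamide riboside kinase of muscle, was higher by 1.73 ± 0.33 (42.2, 104 and 129.9 against 18.5, 23.5 and 55.7 CPM, overlapping), a call lost with either marker covariate (1.19 with fast glycolytic fibre markers and 0.92 with fibroblast and tendon markers).

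With fibroblast and tendon markers as a covariate 13 lipid, 12 branched-chain, 7 phospholipid, 6 creatine and purine and 6 NAD genes were higher, and with fast glycolytic fibre markers 6 NAD genes.

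In protein turnover the median differences of the lists were small. Of 78 genes for cytosolic ribosomal proteins 60 were higher and none lower (median 0.22), 5 and 3 on nuclear totals, 0 and 75 on library totals, and 10 and 1 with fast glycolytic fibre markers as a covariate. Of 38 proteasome genes 16 were higher and 2 lower (median 0.11), 3 and 16 on nuclear totals, 0 and 36 on library totals, and 7 and 1 with that covariate. Autophagy and lysosome genes were higher for 19 of 45 and lower for 9, 5 and 23 on nuclear totals, 0 and 42 on library totals, and 9 and 2 with that covariate. The protein methyltransferases of muscle held 1 of the largest falls: Mettl21c, a lysine methyltransferase largely restricted to muscle, measured 0.333, 1.32 and 2.81 CPM against 37.8, 71.5 and 140.2 CPM and fell by 5.84 ± 0.33 (adjusted p = 9.13e-19). Setd7, a methyltransferase of histones and other proteins, fell by 0.76 ± 0.07 (45.1, 52 and 57.3 against 77.1, 86.1 and 103 CPM).

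Transcription factors were read last. Of 13 factors of mitochondrial biogenesis 4 were higher and 2 lower (median -0.01), 0 and 6 on nuclear totals and 0 and 13 on library totals. Nrf1 (-0.15 ± 0.08, adjusted p = 0.123) and Gabpa (-0.04 ± 0.07, adjusted p = 0.664), the classical activators of nuclear genes for mitochondria, were not called, although Nrf1 was lower with fibroblast and tendon markers as a covariate (-0.27, adjusted p = 0.0374) and both were lower on library totals (-0.81 and -0.68) and nuclear totals (-0.38 and -0.27). Esrra, the oestrogen-related receptor that acts with PGC-1 coactivators, measured 141, 178 and 216 against 93.2, 119 and 148 CPM and was higher by 0.62 ± 0.09 (adjusted p = 1.39e-07) with overlap, and stood at -0.02 on library totals and 0.34 with that covariate. Ppargc1a, the coactivator PGC-1alpha, overlapped widely (182, 327 and 528 against 38.8, 173 and 443 CPM) and was higher by 0.93 ± 0.31 (adjusted p = 0.0119). That call rested on the ND5 strain: the difference was 1.95 against ND5, 0.65 against ND6 and 0.20 against CO1 (adjusted p = 0.000128, 0.222 and 0.734), and with the mean of ND6 and CO1 as the reference it was 0.42 and not called. It was also lost without ANT1 mouse A4 (0.77, adjusted p = 0.0547) and on library totals (0.3, adjusted p = 0.378). Ppara was not called (0.02 ± 0.25, adjusted p = 0.96, but -0.6 and called lower on library totals), while Pparg, at low levels (4.73, 6.48 and 9.15 against 1.83, 3.09 and 5.59 CPM), rose by 1.09 ± 0.15.

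Of 48 fibre-type and muscle factors 23 were lower and 1 higher (median -0.24), including 9 of 16 fast-fibre factors, and 15 were lower with fast glycolytic fibre markers as a covariate. Eya4, a partner of homeobox factors that drive fast genes, measured 2.69, 3.10 and 4.35 against 9.97, 13.9 and 15.9 CPM and fell by 2.02 ± 0.15 (adjusted p = 2.04e-15). Maf, a factor of the fast glycolytic program, measured 7.33, 10.5 and 13.7 against 23.5, 31.9 and 41.2 CPM and fell by 1.62 ± 0.16 (adjusted p = 3.2e-11). Prox1, a slow-fibre factor, measured 8, 10.9 and 17.7 against 18.6, 28.6 and 43.8 CPM and fell by 1.16 ± 0.16 (adjusted p = 3.56e-08). All 3 lay below the 18 others, so factors linked to either fibre type were low together. The single higher factor was Klf10, a TGF-beta inducible repressor, with 20.8, 21.9 and 23.9 against 5.27, 8.11 and 19.1 CPM and a rise of 1.30 ± 0.17 (adjusted p = 8.66e-09). Mef2c was not called (-0.04 ± 0.06, adjusted p = 0.6), but was called lower on library and nuclear totals (-0.69 and -0.27). Of 38 hypoxia and stress factors 12 were lower and 5 higher, with 5 lower under fibroblast and tendon markers as a covariate and 7 without the high-Myh3 libraries: Epas1, the hypoxia factor HIF-2alpha, measured 257, 282 and 298 against 91.5, 170.1 and 205 CPM and was higher by 0.78 ± 0.10 but not called on library totals (0.14, adjusted p = 0.131), whereas Jund (18.8, 23.7 and 26.2 against 35.9, 43.4 and 91.3 CPM) and Hsf2 fell by 1.10 ± 0.15 and 0.71 ± 0.08. Epas1 and Jund stood at 0.43 and -0.72 with that covariate. Of 17 clock genes 15 were not called, 1 was higher and 1 lower.

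Because muscle genes of both directions occur above, the promoters were read for the core of the site that MEF2 factors bind. Promoters of RefSeq (GRCm38.p6) were held for 9615 of the 13935 genes tested, and the 250 bases before each start were searched on both strands for TAAAAATA. The letters occurred in 147 promoters (1.53%): 1.34% of genes called higher, 1.55% of those called lower and 1.60% of those not called. The core of oestrogen-related receptor sites, TCAAGGTCA, occurred in 0.322% of all, 0.358% of higher and 0.279% of lower genes. The other 4 cores searched were those of AP-1 (TGANTCA; 5.56% of all, 5.15% of higher, 6.84% of lower), NRF1 (1.85%, 2.28% and 1.55%), GABP (CCGGAAGTG; 3.31%, 3.45% and 2.23%) and the cAMP response element (TGACGTCA; 3.04%, 3.22% and 2.51%). These shares were not tested against each other. A match is only a description of these letters. Named genes from a part of the genome were left out of the choice that follows, so its counts and their split are not complete. Of the remaining named genes whose ANT1 values lay apart from all others, 8 held the MEF2 core, 4 higher (Akt1, Fth1, Pgam2, Rpl3l) and 4 lower (Fhl1, Synpo2l, Tnni1, Xirp2). They are shown because they let a reader see the same core before genes that went opposite ways. They were picked after their values were seen. Each runs 5′ to 3′ on the strand of the gene, with the first match in capitals and up to 25 bases on each side.
Akt1 (chr12:112674955-112675012, minus strand): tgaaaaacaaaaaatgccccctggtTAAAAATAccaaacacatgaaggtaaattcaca
Fhl1 (chrX:56779520-56779577, plus strand): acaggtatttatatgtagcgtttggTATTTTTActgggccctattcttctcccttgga
Fth1 (chr19:9980350-9980383, plus strand): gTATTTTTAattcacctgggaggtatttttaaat
Pgam2 (chr11:5803843-5803900, minus strand): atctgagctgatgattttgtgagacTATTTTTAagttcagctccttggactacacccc
Rpl3l (chr17:24732538-24732595, plus strand): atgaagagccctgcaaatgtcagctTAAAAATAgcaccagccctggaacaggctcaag
Synpo2l (chr14:20664685-20664742, minus strand): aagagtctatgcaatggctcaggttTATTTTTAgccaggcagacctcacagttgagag
Tnni1 (chr1:135799352-135799409, plus strand): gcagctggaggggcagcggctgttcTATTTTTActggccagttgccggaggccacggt
Xirp2 (chr2:67445904-67445961, plus strand): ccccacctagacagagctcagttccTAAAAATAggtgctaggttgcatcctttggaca
In these windows the core lies 44 bases before the start in Tnni1 and 249 in Fth1, counted from its first base. Fth1, the iron-storing ferritin heavy chain, Pgam2, a muscle glycolytic enzyme, and Rpl3l, a ribosomal protein of striated muscle, were higher by 0.57 ± 0.06, 0.62 ± 0.08 and 0.38 ± 0.09, and stood at -0.08, -0.04 and -0.27 on library totals. The Rpl3l call was lost with fibroblast and tendon markers as a covariate (0.08, adjusted p = 0.586).

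Some of the most separated genes lay outside the lists. Pdhb, a subunit of pyruvate dehydrogenase, measured 623, 657 and 696 against 306, 342 and 384 CPM (0.94 ± 0.05, adjusted p = 1.04e-20). N4bp1, an inhibitor of ubiquitin ligases, measured 54.2, 61.2 and 73.1 against 17.5, 24.5 and 27 CPM (1.38 ± 0.07, adjusted p = 2.58e-20), and Dtnbp1, dysbindin, 80, 87.1 and 92.7 against 30.4, 38.8 and 45.3 CPM (1.16 ± 0.06, adjusted p = 7.66e-20). Among the largest falls were Eda2r, a receptor of the TNF family (1.66, 2.32 and 3.23 against 7.50, 13.4 and 27.2 CPM, -2.61 ± 0.26), the semaphorin Sema3c (4.64, 7.38 and 8.62 against 23.1, 28.5 and 42 CPM, -2.07 ± 0.15), the chaperone Hspa2 (-2.36 ± 0.21) and the microtubule protein Tppp3 (-2.60 ± 0.25). Rises outside the lists included the alkaline phosphatase Alpl (44.7, 59 and 78.5 against 10.7, 21 and 36.3 CPM, 1.47 ± 0.19), Fbxo44, a ubiquitin ligase subunit (1.52 ± 0.11), and Ogdhl, a relative of oxoglutarate dehydrogenase (1.53 ± 0.12).

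The ANT1 libraries were also set against each mtDNA strain. The 3 comparisons share these 6 libraries and are given side by side only. Against ND5 6835 genes were called (49%), against CO1 4905 (35.2%) and against ND6 4297 (30.8%). Pln differed by 2.98, 2.21 and 2.84 against ND5, ND6 and CO1, Sln by -5.19, -3.68 and -4.19, Akt1 by 0.91, 1.03 and 0.98, and Irs1 by -1.71, -1.64 and -1.53, and each of these 12 differences was called. The 3 strains were then tested against each other with no ANT1 library: 1236 genes (8.87%) differed among them, and 859 of these were also called in ANT1, 664 lower and 195 higher. Sln (adjusted p = 0.0192), Casq1 (0.0431), Ldhb (0.014) and Jund (0.00969) differed among the strains, all with ND5 farthest from ANT1. Igf1, the growth factor, is of the same kind: ANT1 was 1.97 lower than ND5 (adjusted p = 1.62e-05) but 0.56 and 0.87 lower than ND6 and CO1 (0.258 and 0.0569), and the 3 strains differed (0.0105). Its difference from the mean of the 3 strains was not called without the high-Myh3 libraries (-0.7, adjusted p = 0.0537) and stood at 0.21 with fibroblast and tendon markers as a covariate. Csrp3, a stretch-sensing Z-disc protein, differed by -1.65, -0.73 and -0.79 (adjusted p = 6.9e-05, 0.0829 and 0.0567), with no call among the strains (0.0721), and its difference from their mean was not called with the same covariate (-0.61, adjusted p = 0.193). Without the 5 high-Myh3 libraries no gene differed among the strains at an adjusted p under 0.05 by edgeR. Of 14206 genes tested in that fit, 508 had an unadjusted p under 0.05, a smaller share than the 0.05 that chance alone would give. The genes called against ND5 numbered 4273. That fit held fewer ND5 libraries (without B70, B19 and B85) and fewer CO1 libraries (without E64 and E98). Lost power and the loss of the libraries with the highest Myh3 therefore cannot be told apart. Single ND5 libraries moved the count among the strains as well: it was 6 without B70, 161 without B85, 622 without B19 and 2437 without B10.

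**Figure D4:**
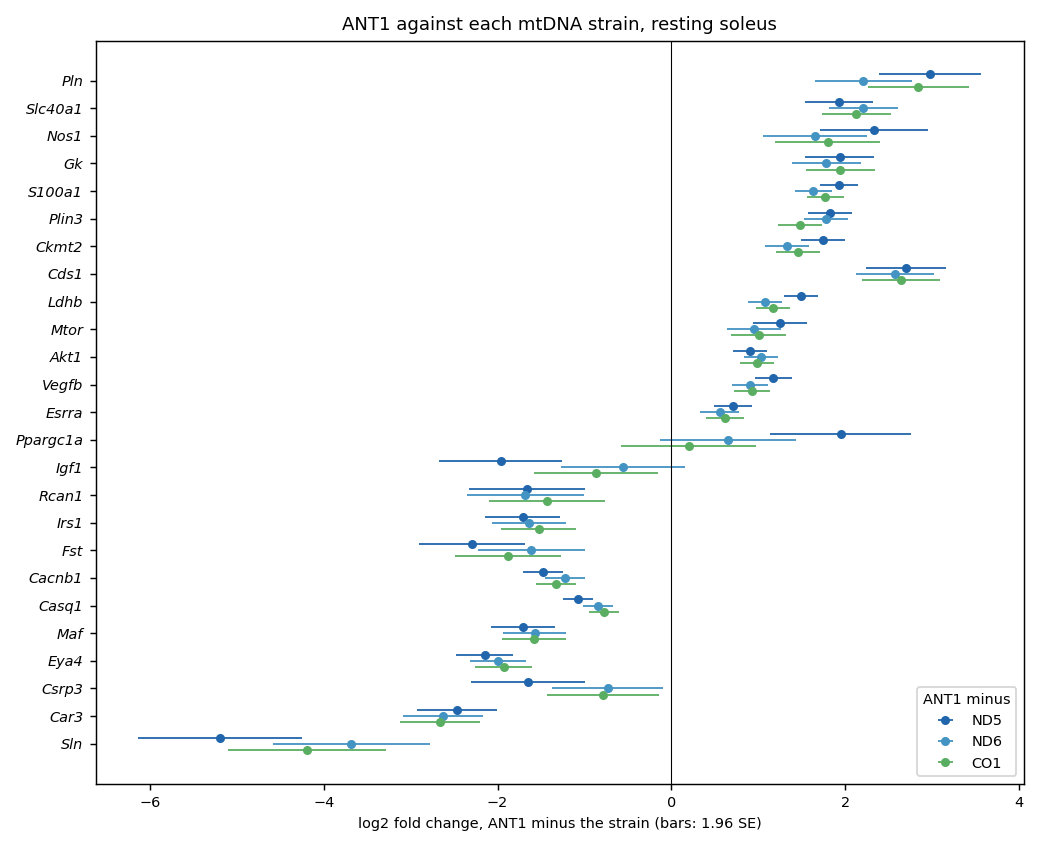
Log2 fold change of ANT1 minus each mtDNA strain (points, with bars of 95% intervals) for 25 genes at rest. Most genes lie at like values for the 3 strains, while Ppargc1a and Igf1 lie farther from 0 against ND5 (1.95 and -1.97) than against ND6 (0.65 and -0.56) or CO1 (0.20 and -0.87).

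The same strain difference was measured in other mice, those that had run. There 6064 genes were called (43.5%), 2936 higher and 3128 lower. Of the genes called at rest 5060 were called in the same direction, which is 76.1% of the resting and 83.4% of the exercised calls, and 1 was called in the opposite direction. Pln was higher by 2.75 ± 0.21 in exercised mice, Sln lower (-4.15 ± 0.43), S100a1 higher (1.59 ± 0.08), Nos1 higher (1.66 ± 0.23), Akt1 higher (0.97 ± 0.08), Irs1 lower (-1.24 ± 0.19), Ckmt2 higher (1.27 ± 0.10), Plin3 higher (1.70 ± 0.10) and Mettl21c lower (-5.54 ± 0.32). The test of the difference between the resting and the exercised strain difference called 0 genes by edgeR, DESeq2 or limma voom. Of 13935 genes, 397, 393 and 363 had a p under 0.05 before adjustment, smaller shares than the 0.05 that chance alone would give. The absence of calls does not show that the differences were equal. By their soleus labels the resting and exercised libraries are separate mice in 1 fit. The label of ND5 mouse B80 is exercised for soleus but non-exercised for heart, and the soleus label was used.

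**Figure D5:**
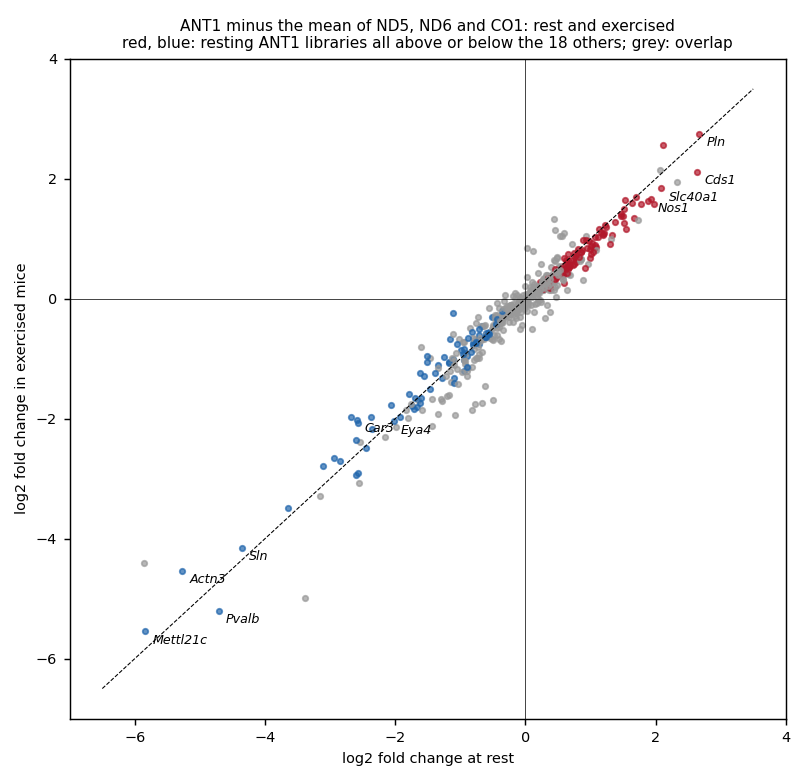
Log2 fold change of ANT1 minus the mean of the 3 mtDNA strains at rest (horizontal) and in exercised mice (vertical) for 488 genes, with Slc25a4 left out for scale and a dashed line where both are equal. Red and blue mark genes whose 6 resting ANT1 values lie all above or all below the 18 others; Pln lies at 2.67 and 2.75 and Mettl21c at -5.84 and -5.54.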

How the data were processed

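Soleus RNA was enriched with oligo(dT) and sequenced as paired-end NEBNext Ultra II libraries, per the labels' protocols. The authors deposited RSEM expected counts and FPKM per gene, which the submitters' processing notes tie to STAR 2.5.2b, RSEM 1.2.28 and mm10; settings and strand are not given in the sources used here. Expected counts were rounded, filtered with filterByExpr by group (13935 of 53656 genes kept), scaled by TMM and tested with edgeR 4.0.16 in R 4.3.3, with all 48 placed soleus libraries in 1 fit of 8 group means; genes with an adjusted p under 0.05 were called. CPM are scaled by TMM, log2 CPM used a prior count of 2, and deposited FPKM served only to compare levels between genes. Libraries held 10.21 to 20.75 M counts (M, mega). Of the 120 within-group library pairs 0 were identical. No label says more on how the mice were drawn, so p-values cover the spread between these mice. Alternatives were RLE factors, DESeq2 1.42.0, limma 3.58.1 voom, other filters, removal of mtDNA-encoded genes, resting libraries alone, marker covariates and single libraries left out, and, added after seeing the data, 4 more on scaling, high-Myh3 libraries and the reference. Scripts were tested on simulated data. The genes and lists were chosen with earlier results of these data known. Named genes were Slc25a4 and Slc25a5, the 15 largest changes and 10 smallest p-values in each direction among called genes of mean log2 CPM of at least 3 whose ANT1 values lay apart, and of each list the 4 smallest p-values and preset key members. There were 12 columns with names that match no sample, not used here. Positions are from GENCODE on mm10, matched by symbol for 28452 genes. Genes with near-identical copies or overlapping partners are uncertain. Some genes of the lists are counted but not reported here by name.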

Additional observations from a re-analysis of the deposited data

Results flagged for a closer look

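Single libraries stood apart from the other 5 of their group in 5 of 196 group checks by Dixon's ratio at its 95% critical value, while chance flags about 1 in 20 groups. The share of counts from mtDNA was 47.59% in ANT1 mouse A82 and 35.81 to 39.20% in the other 5 ANT1 mice. Frzb was at 0.62 log2 CPM in ND5 mouse B47 and at 2.03 to 2.35 in the other ND5 mice. Ldhb was at 10 log2 CPM in ND6 mouse I95 against 9.87 to 9.90 in the others, a narrow spread. Klf10 was at 4.26 log2 CPM in the same ND6 mouse against 2.78 to 3.20. Ppargc1a was at 7.60 log2 CPM in ND5 mouse B10 against 5.61 to 6.31 in the other ND5 mice, which lowers the ANT1 minus ND5 difference given above. No cause was tested.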

How the results depend on the processing

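With library totals in place of TMM, chosen after seeing the data, 11959 genes were called (381 higher, 11578 lower), with 11779, 10456 and 11165 against ND5, ND6 and CO1 and 2774 among the 3 strains. With nuclear totals 1426 were higher and 6870 lower. On library totals the sign turned for Esrra (-0.02), Fth1 (-0.08), Pgam2 (-0.04), Rpl3l (-0.27) and Tnnc2 (-0.03), since a constant is subtracted. With fibroblast and tendon markers as a covariate 4069 genes were called (2035 higher, 2034 lower), and Igf1 (0.21) and Myh3 (0.32) turned sign and were not called; the cause was not tested. Without the high-Myh3 libraries, chosen after seeing the data, 4273 genes were called against ND5 and 0 among the strains, with fewer ND5 and CO1 libraries in the fit. With single libraries left out, the count was 5930 to 6792 for the main comparison (2887 to 3172 higher, 2984 to 3620 lower), 6132 to 7081 against ND5, 3854 to 4406 against ND6, 4347 to 4995 against CO1, 6 to 2437 among the strains, 5418 to 6191 in exercised mice and 0 for the difference of rest and exercise. Counts of genes for whole comparisons under RLE factors, DESeq2, voom, the other filters, removal of mtDNA-encoded genes and resting libraries alone were within 1.5 times the values given. Of 110 counts over lists, 1 (RLE factors, the 1 CPM filter or resting libraries alone), 3 (DESeq2, voom or no filter) and 4 (mtDNA-encoded genes removed) moved further, against 43 and 51 with the fast glycolytic and the fibroblast and tendon covariates, 14 without the high-Myh3 libraries, 20 with ND6 and CO1 as the reference, and 88 and 62 on library and nuclear totals. Of 120 named genes, 101 kept direction and side of the threshold on library totals, 114 on nuclear totals, 113 with fibroblast and tendon markers and 117 with fast glycolytic fibre markers as a covariate, 118 with ND6 and CO1 as the reference, and 119 or 120 under each other alternative that did not leave out a single library. No paired analysis was possible because no 2 strains share more than 1 number in the codes of their resting mice (A18 and I18, B85 and I85, E100 and I100) or of their exercised mice, and the labels tie no meaning to them. Genes under the count filter were not tested.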

Other observations

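Differences were also read along the genome, in windows of 10 Mb with at least 20 tested genes, a reading chosen after seeing the data. Over all 12286 tested genes with a position, 10.4% had their 6 ANT1 values all above or all below the 18 others. The window with the largest share of 212 was the start of chromosome 17 (0 to 10 Mb), with 10 of 30 genes (33.3%). There Tmem242 (0.52), Zdhhc14 (0.57), Rsph3b (0.93), Tagap1 (1.01), Rnaset2b (1.02), Rsph3a (0.41), Rnaset2a (0.97), Fgfr1op (0.82) and Mpc1 (1.02), a subunit of the mitochondrial pyruvate carrier, were higher in ANT1 on the log2 scale, and Pde10a (-1.30) was lower. Rnaset2a and Rnaset2b, and Rsph3a and Rsph3b, are near-identical pairs whose counts could be split, so they are not separate evidence. The next window was 30 to 40 Mb on chromosome 8, with 7 of 26 genes (26.9%): Fut10 (-2.08), Gsr (-0.97), which encodes glutathione reductase, Purg (-0.81), Leprotl1 (-0.67), Tnks (-0.46) and Mak16 (-0.39) were lower, and Ppp1r3b (2.40), a glycogen-targeting subunit of protein phosphatase 1, was higher. Slc25a4 itself lies further along chromosome 8. Of the 93 genes tested within 20 Mb of it 15 (16.1%) were apart, of the 46 within 10 Mb 4 (8.7%) and of the 29 within 5 Mb 2 (6.9%). The span of 20 Mb takes in the window of 30 to 40 Mb with its 7 genes, so it is not a separate observation. No cause was tested.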
